A study of Homo sapiens with 6 samples.

Results

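The genes examined were 10 genes of the cyclin D, CDK4/6 and RB axis, namely *CCND1*, *CCND2*, *CCND3*, *CDK4*, *CDK6*, *CDKN2A*, *CDKN2C*, *CDKN1B*, *RB1* and *E2F3*. They were taken for their place in the pathway, and all 10 were found among the 58735 Ensembl genes of each table. The cells were SK-N-AS, an established line from a human neuroblastoma, and the study sequenced their RNA (RNA-seq) to learn which transcripts change when Prp19 is lost, a splicing factor whose gene is *PRPF19*. Cells received a small interfering RNA against Prp19 (siPrp19) or a negative control siRNA (NC), with 3 libraries per group. The GEO labels give 72 h of transfection for all 6 libraries, and the methods of the paper name a shorter time. Both groups are transiently transfected cells of 1 line, and untransfected cells were not analysed here. The paper tested more than 1 siRNA against Prp19 and chose the first for its later assays. With 1 sequence, its other effects cannot be told apart from loss of Prp19. Values are FPKM, the fragments counted per kilobase of exon and scaled to library size, so that levels of different genes can be roughly compared. The length used is that of all annotated exons of a gene merged, so comparisons between genes depend on the annotation.

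Each table carries a library name in its header, and these names were used for the groups: NCa, NCb and NCc against siPrp19a, siPrp19b and siPrp19c. For NCb and siPrp19b, the GEO record that holds the table states the opposite group. The main comparisons are therefore given also for the 4 libraries whose group is the same in header and record (NCa, NCc, siPrp19a and siPrp19c) and for all 6 libraries as recorded. *PRPF19*, the targeted gene, was at 83.0, 83.1 and 93.0 FPKM in NCa, NCb and NCc, and at 19.6, 19.1 and 18.5 FPKM in siPrp19a, siPrp19b and siPrp19c. The library headed NCb thus lay with the other NC libraries, and the one headed siPrp19b with the other siPrp19 libraries. *PRPF19* fell by 77.9% (log2 difference −2.12 ± 0.07, SE, adjusted p = 0.000215, limma). In the 4 libraries the difference was −2.15 (adjusted p = 0.0266), and as recorded −0.74, where the groups overlapped and the test was not passed.

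Between 14887132 and 19977811 recovered reads stood behind each library. NCa and NCb differed little beyond counting noise (chi-square per degree of freedom 1.72), as did siPrp19b and siPrp19c (2.59), whereas the 13 other pairs of libraries gave 18.1 to 46.7. NCc and siPrp19a were thus the libraries farthest from the others of their groups. How the close pairs arose was not tested, and the tests below count each library as independent. With the close pairs averaged, 2 genes passed an adjusted p of 0.05 (limma), beside 1089 with the 6 libraries kept separate. Mitochondrial genes took 8.29% of reads in siPrp19a and 5.15% to 5.49% in the 5 other libraries. Of 10 adrenergic neuroblastoma markers, 9 exceeded 1 FPKM, and their summed level was 337 to 357 FPKM in NC and 265 to 278 FPKM in siPrp19 libraries. Of 8 mesenchymal markers, 7 did so, with sums of 275 to 309 and 213 to 243 FPKM. Of 5 markers of other cell types only *PTPRC*, the leukocyte antigen CD45, exceeded 1 FPKM, with 24.9 to 30.7 FPKM in NC and 16.9 to 20.4 FPKM in siPrp19 libraries. *PECAM1*, an endothelial marker, lay below that cutoff at 0.562 to 0.982 FPKM, with up to 160 reads in a library. *ALB*, *CDH1* and *EPCAM* stood at or near 0. The part of these shifts in the results below was not tested, and in bulk RNA fewer cells of a kind and less RNA per cell cannot be told apart.

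D-type cyclins bind the kinases CDK4 and CDK6 when growth signals arrive, and the active pairs phosphorylate the retinoblastoma protein RB. Phosphorylated RB releases E2F transcription factors, which then switch on genes for DNA replication and cell division. INK4 proteins such as p16 and p18 block CDK4 and CDK6, whereas p27 binds cyclin-CDK complexes and chiefly holds back CDK2. In neuroblastoma cyclin D1 is known for its high expression, and the axis acts through protein levels and phosphorylation, which RNA-seq does not measure. The paper reports less cyclin D1 protein by western blot after Prp19 knockdown and more after overexpression. It also reports a significant decrease of *CCND1* RNA after knockdown, citing RNA-seq of SK-N-AS and of another neuroblastoma line. The paper tested differential expression with DESeq2, whereas limma on FPKM was used here.

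Because E2F factors act on genes of this same axis, the sequences just upstream of the transcription starts were searched for E2F-type letters. RefSeq (GRCh38.p14) windows of 250 bases before the start were available for 8 of the 10 genes, with 15 starts, and not for *CCND1* and *CCND2*. The 1 window of *RB1* (chr13:48476200-48476449) lies inside the gene, so the region before its first exon was not searched. The motifs searched on both strands were TTCCCGC first, TTGGCGC next, then the form TTCGCGC with a CpG in its middle, and lastly the form TTGCCGC. Of the 15 windows 2 held a match, 1 of *CDKN2C* and 1 of *E2F3*, and each held 2 matches that do not overlap, whereas 10.9% of all 35116 windows of that length held at least 1. The window of *CDKN2C* lies wholly within an exon of a longer transcript of the gene, so only 30 bases around each of its matches are shown. The window of *E2F3* overlaps no exon of the gene. These sequences are shown because only these 2 of the 15 windows held a match, and both carry TTCCCGC. Capitals mark the matched letters, the reverse complement being GCGGGAA, and all are written on the plus strand, which is the strand of both genes.

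CDKN2C, chr1:50968564-50968593, match beginning 131 bases before the start: gagagcgggagGCGGGAAtgagggcgcggg
CDKN2C, chr1:50968661-50968690, match beginning 34 bases before the start: ggcgcccggccTTCCCGCtcccgcggcgct
E2F3, chr6:20401629-20401878, matches beginning 53 and 24 bases before the start: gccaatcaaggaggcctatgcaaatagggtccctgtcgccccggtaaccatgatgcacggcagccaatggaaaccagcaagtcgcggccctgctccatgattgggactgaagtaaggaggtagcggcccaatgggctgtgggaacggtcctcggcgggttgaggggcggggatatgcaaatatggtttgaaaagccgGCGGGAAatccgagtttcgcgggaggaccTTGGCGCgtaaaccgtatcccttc

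A match of these letters is a description and does not show that an E2F factor binds there.

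Of the 10 genes, 9 passed the filter of a mean of at least 1 FPKM and were tested with all other such genes, 13718 in total. In the order of their mean level over the 6 libraries, *CCND1* stood first with 74.2 FPKM and *CDK4* followed with 64.4 FPKM. *CDKN1B* at 38.9 and *CDKN2C* at 37.0 FPKM formed the next pair. *CDK6* at 21.0, *E2F3* at 18.0, *CCND3* at 17.2 and *RB1* at 15.8 FPKM came next, *CDKN2A* stood at 8.73 FPKM, and *CCND2* was at 0. The ranges over libraries of *CCND1* and *CDK4* overlapped, as did those of *CDKN1B* and *CDKN2C* and those of each neighbouring pair from *CDK6* to *RB1*, so that the order within these sets is not settled.

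**Figure D1:**
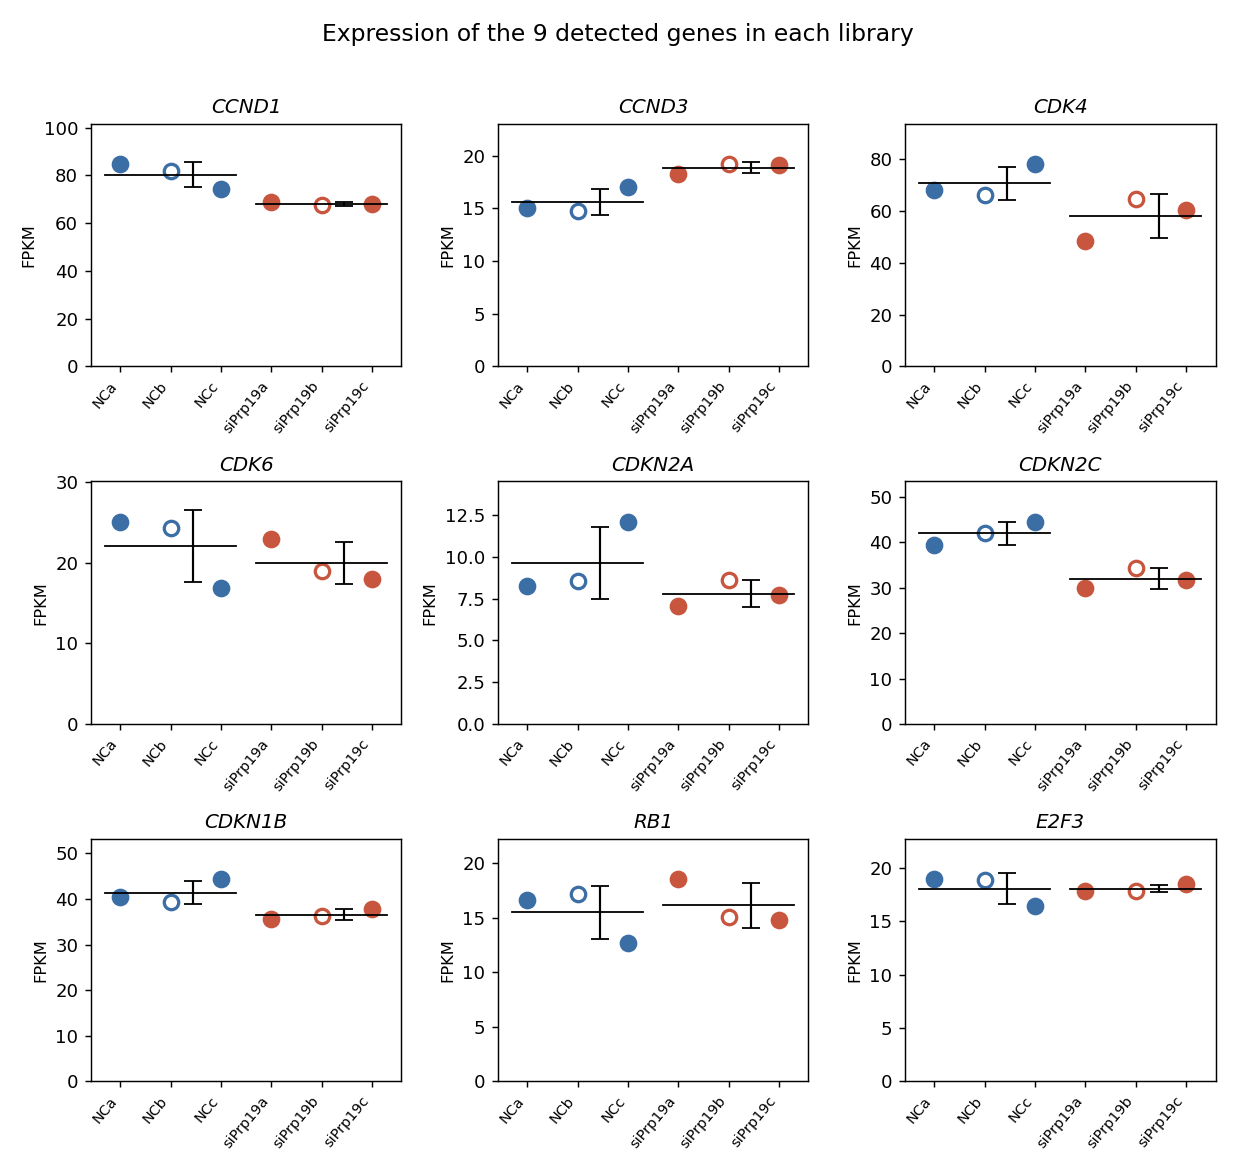
FPKM (vertical axes, from 0) of the 9 detected genes in each library (horizontal axes); blue points are NC and red points siPrp19 by the name in the header, open points are the libraries whose record states the other group, horizontal lines are group means and bars the SD over 3 libraries. *CCND1*, *CDK4*, *CDKN2C* and *CDKN1B* lay lower in every siPrp19 library than in any NC library, and *CCND3* lay higher in every one.

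Between siPrp19 and NC, 1 of the 9 tested genes passed the test at an adjusted p of 0.05, namely *CDKN2C*, which was lower. Over all 13718 genes, 7.94% passed, 5.37% lower and 2.57% higher, so that 1 of 9 is close to the background. The groups did not overlap for 5 of the 9 genes, 4 lower and 1 higher, beside 31.3% of all genes tested (18.1% lower and 13.2% higher). The median log2 difference was −0.17 over the 9 genes and −0.02 over all genes tested. Among the 4 libraries, none of the 9 genes passed (0.0146% of all genes, 2 in number), and 6 of 9 did not overlap beside 44% of all genes. With the libraries as recorded, none of the 9 and 0% of all genes passed with limma, 191 genes had an unadjusted p below 0.05, voom called 0 genes as well, and none of the 9 was free of overlap beside 4.62%.

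The D-type cyclins, the growth-dependent activators of CDK4 and CDK6, were represented by *CCND1* and *CCND3*. *CCND1* (ENSG00000110092, GRCh38 chr11:69641087-69654474, plus strand) was at 84.6, 82.0 and 74.4 FPKM in NCa, NCb and NCc. It was at 69.0, 67.4 and 68.0 FPKM in siPrp19a, siPrp19b and siPrp19c. The siPrp19 libraries lay below all NC libraries, and NCc lay nearest to them. The mean was 80.3 ± 5.32 FPKM in NC and 68.2 ± 0.801 FPKM in siPrp19 (SD, n = 3), a log2 difference of −0.23 ± 0.08 (SE), which did not pass (adjusted p = 0.121, limma). Without NCc the difference was −0.29 and passed (adjusted p = 0.0310, limma). That setting leaves the close pair NCa and NCb as the NC group, and 1354 of the 13718 genes passed in it. The difference was −0.08 with quantile normalization (adjusted p = 0.711) and −0.16 with voom (adjusted p = 0.285). In the 4 libraries it was −0.21 (adjusted p = 0.614) and as recorded −0.05. Of the exon bases of *CCND1*, 10.3% are shared with *LTO1* on the opposite strand, and since it was not given whether strand was used in counting, the reads of such bases cannot be told apart.

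*CCND3* (ENSG00000112576, chr6:41934933-42050357, minus strand) was at 15.1, 14.8 and 17.0 FPKM in NCa, NCb and NCc. It was at 18.3, 19.2 and 19.1 FPKM in siPrp19a, siPrp19b and siPrp19c. Every siPrp19 library lay above every NC library, which was the opposite order to *CCND1*. The means were 15.6 ± 1.22 and 18.9 ± 0.499 FPKM (SD, n = 3), with a log2 difference of 0.26 ± 0.07 that did not pass (adjusted p = 0.0844, limma). It passed with quantile normalization (0.33, adjusted p = 0.0298, where 7.92% of all genes passed) and with voom on the recovered reads (0.35, adjusted p = 0.0306, 9.99% of all genes). It also passed without NCc (0.32, adjusted p = 0.0267, limma), where 1354 of the 13718 genes passed and the NC group was the close pair NCa and NCb. Among the 4 libraries it was 0.21 (adjusted p = 0.565) and as recorded 0.02. *CCND2* (ENSG00000118971, chr12:4273772-4305350), the cyclin D gene not detected here, had 0 reads in all 6 libraries. A count of 0 allows up to 3 reads, or 0.0200 to 0.0284 FPKM depending on the library, for counting error only. A gene on the same strand, ENSG00000285901, shares 13.8% of its exon bases and had at most 1 read in a library.

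The summed FPKM of the D-type cyclins was 99.6, 96.8 and 91.4 in NCa, NCb and NCc and 87.3, 86.6 and 87.1 in siPrp19a, siPrp19b and siPrp19c. The means were 95.93 ± 4.203 and 87.0 ± 0.367 (SD, n = 3), without overlap. The difference of −8.92 FPKM had a two-sided exact permutation p of 0.1, which is the smallest that 3 against 3 libraries can give. Rescaled to equal sums per library it was −6.41 (exact permutation p = 0.4), in the 4 libraries −8.29, and as recorded −2.13 (exact permutation p = 0.7). Within that sum the share of *CCND1* was 84.9%, 84.7% and 81.4% in NC and 79.1%, 77.9% and 78.1% in siPrp19 libraries. Being a ratio within each library, this share does not depend on the scaling between libraries. The mean share was 83.7% ± 1.98 in NC and 78.3% ± 0.640 in siPrp19, a difference of −5.34 percentage points (exact permutation p = 0.1, again the smallest possible). With the 4 libraries the share differed by −4.58 points, where the smallest exact p is 0.333, and as recorded by −0.760 points (exact permutation p = 0.9).

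The catalytic partners *CDK4* and *CDK6* varied more within the groups. *CDK4* (ENSG00000135446, chr12:57747727-57756013, minus strand) was at 68.0, 66.3 and 78.1 FPKM in NCa, NCb and NCc. It was at 48.5, 64.8 and 60.6 FPKM in siPrp19a, siPrp19b and siPrp19c. The groups did not overlap, but NCb and siPrp19b were close and siPrp19a lay well below the other siPrp19 libraries. The means were 70.8 ± 6.38 and 58.0 ± 8.499 FPKM (SD, n = 3), a log2 difference of −0.29 ± 0.13 that did not pass (adjusted p = 0.219, limma), and in the 4 libraries it was −0.42 (adjusted p = 0.406). Without siPrp19a it was −0.17 and with quantile normalization −0.13, neither of which passed. *TSPAN31* on the opposite strand shares 43.2% of the exon bases of *CDK4*, so its level is uncertain.

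*CDK6* (ENSG00000105810, chr7:92604921-92836594, minus strand) was at 25.05, 24.2 and 16.9 FPKM in NCa, NCb and NCc, and at 22.9, 18.9 and 18.0 FPKM in siPrp19a, siPrp19b and siPrp19c. NCc was the lowest and NCa the highest of all 6 libraries, and the groups overlapped. The log2 difference was −0.13 ± 0.16 with a 95% interval from −0.51 to 0.26 (adjusted p = 0.691, limma). The ratio of *CDK4* to *CDK6* was 2.72, 2.74 and 4.63 in NC and 2.12, 3.43 and 3.38 in siPrp19 libraries. NCc had the highest ratio and siPrp19a the lowest, and the groups overlapped. On mean log2 ratios the exact permutation p was 0.6. The mean ratio itself was 3.36 ± 1.10 in NC and 2.97 ± 0.743 in siPrp19, and the difference was −0.386. In the 4 libraries it was −0.924 and as recorded −0.847, both with overlap, and its sign turned without NCc (0.248) and without siPrp19a (0.0429).

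**Figure D2:**
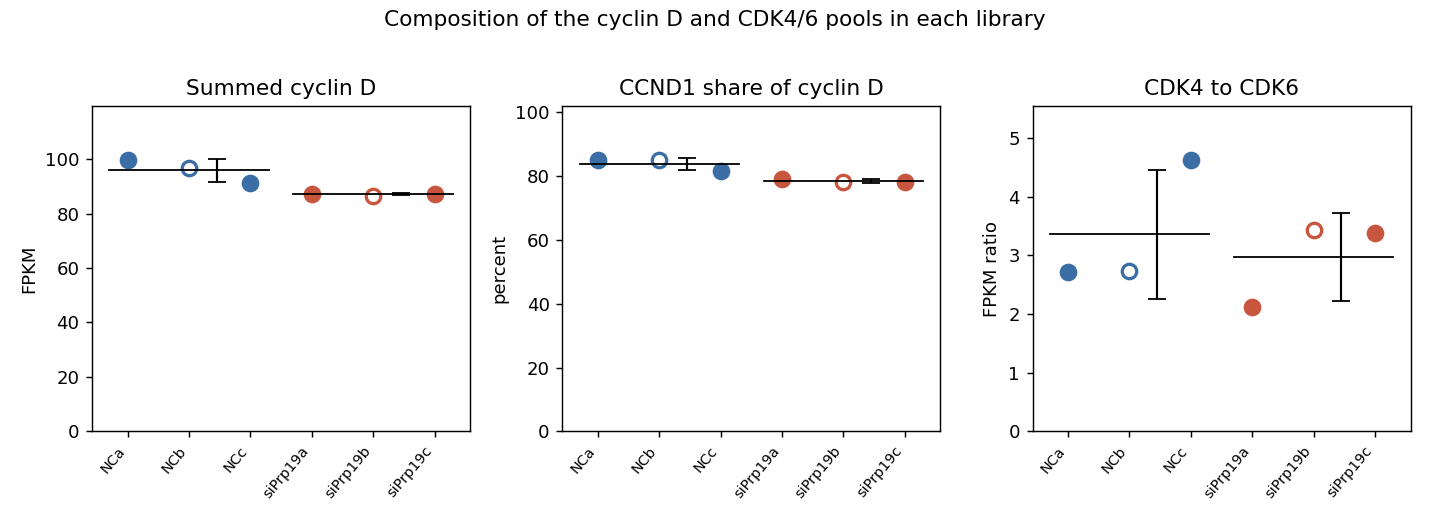
Summed FPKM of *CCND1*, *CCND2* and *CCND3*, percent share of *CCND1* in it, and FPKM ratio of *CDK4* to *CDK6* (vertical axes, from 0) in each library; colours, open points, lines and SD bars are as in the plot of single genes. The share of *CCND1* was 77.9% to 79.1% in siPrp19 and 81.4% to 84.9% in NC libraries, whereas the kinase ratios of the groups overlapped.

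Among the CDK inhibitors of the 10 genes, *CDKN2C* (ENSG00000123080, chr1:50960745-50974633, plus strand), which encodes p18, an INK4 protein, was the 1 past the test. It was at 39.4, 42.0 and 44.5 FPKM in NCa, NCb and NCc. It was at 29.9, 34.3 and 31.8 FPKM in siPrp19a, siPrp19b and siPrp19c, from 1566 to 2540 reads per library. All siPrp19 libraries lay below all NC libraries. The mean was 42.0 ± 2.55 FPKM in NC and 32.0 ± 2.23 FPKM in siPrp19 (SD, n = 3), so *CDKN2C* fell by 23.7% (log2 difference −0.38 ± 0.08, 95% interval −0.57 to −0.19, adjusted p = 0.0369, limma). The call did not hold without any 1 of the 6 libraries, with differences from −0.43 to −0.33 and adjusted p from 0.0505 to 0.137, nor in the 4 libraries (−0.43, adjusted p = 0.299). As recorded the difference was −0.19 and did not pass. Of 11 other alternatives 5 kept it. It was lost with a filter at 0.1 FPKM (adjusted p = 0.0566), voom (0.0568), quantile normalization (0.0594), no filter (0.0807), equal sums (0.0985) and the close pairs of libraries averaged (0.302).

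*CDKN2A* (ENSG00000147889, chr9:21967753-21995301, minus strand) encodes both p16, which blocks CDK4 and CDK6, and p14ARF, which acts on the p53 pathway, and a value per gene does not separate them. It was at 8.24, 8.58 and 12.1 FPKM in NCa, NCb and NCc, and at 7.06, 8.62 and 7.74 FPKM in siPrp19a, siPrp19b and siPrp19c. NCc stood apart above the rest, and the other libraries of both groups overlapped. The log2 difference was −0.26 ± 0.14 (95% interval −0.60 to 0.08, adjusted p = 0.338, limma), and without NCc it was −0.10 (adjusted p = 0.538). The antisense gene *CDKN2B-AS1* shares 7.88% of its exon bases, with at most 11 reads of its own in a library.

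*CDKN1B* (ENSG00000111276, chr12:12715058-12722371, plus strand), which encodes p27, was at 40.4, 39.4 and 44.3 FPKM in NCa, NCb and NCc. It was at 35.5, 36.2 and 37.8 FPKM in siPrp19a, siPrp19b and siPrp19c. The siPrp19 libraries lay just below the NC libraries without overlap. The means were 41.4 ± 2.58 and 36.5 ± 1.18 FPKM (SD, n = 3), a log2 difference of −0.17 ± 0.07 that did not pass (adjusted p = 0.208, limma). With quantile normalization it was −0.06 and with voom −0.10. Over the 4 libraries it was −0.20 (adjusted p = 0.597), and as recorded −0.10.

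Downstream, *RB1* (ENSG00000139687, chr13:48303726-48599436, plus strand) encodes the RB protein, the main substrate of CDK4 and CDK6. It was at 16.6, 17.2 and 12.7 FPKM in NCa, NCb and NCc, and at 18.5, 15.1 and 14.8 FPKM in siPrp19a, siPrp19b and siPrp19c. NCc was the lowest and siPrp19a the highest, and the groups overlapped. The log2 difference was 0.06 ± 0.14 (95% interval −0.26 to 0.38, adjusted p = 0.832, limma), and its sign turned without NCc (−0.07) and without siPrp19a (−0.04).

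*E2F3* (ENSG00000112242, chr6:20401906-20493715, plus strand), an activating E2F factor held by RB, was at 18.9, 18.8 and 16.4 FPKM in NCa, NCb and NCc. It was at 17.8, 17.8 and 18.4 FPKM in siPrp19a, siPrp19b and siPrp19c. The groups overlapped and their means were equal to 3 digits, at 18.0 ± 1.43 and 18.0 ± 0.356 FPKM (SD, n = 3). The 95% interval of the log2 difference ran from −0.18 to 0.18 (adjusted p = 0.987, limma). For the 4 libraries the log2 differences were −0.02 for *CDK6*, −0.39 for *CDKN2A*, 0.18 for *RB1* and 0.04 for *E2F3*, with adjusted p from 0.469 to 0.977 (limma). As recorded, the differences of the 9 genes ran from −0.27 for *CDK4* to 0.18 for *RB1*.

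**Figure D3:**
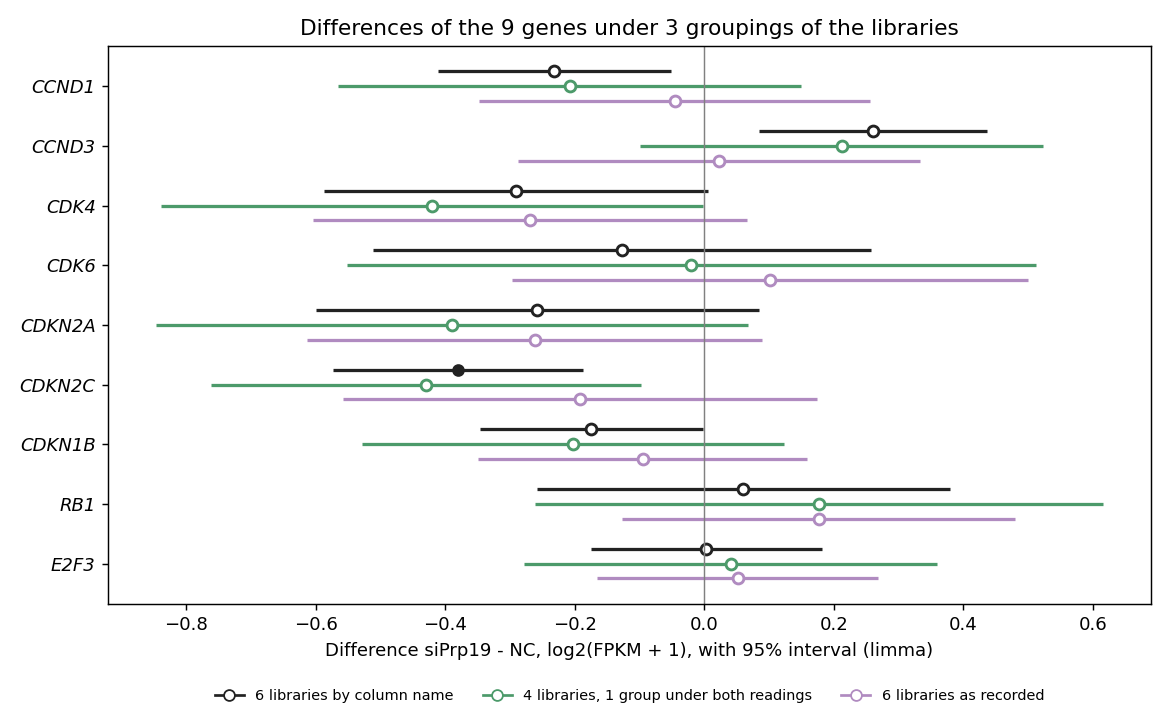
Difference between siPrp19 and NC in log2(FPKM + 1) (horizontal axis) with its 95% limma interval for each of the 9 genes (rows), for 6 libraries by the name in the header (black), 4 libraries whose group is the same in header and record (green) and 6 libraries as recorded (purple); a filled point passed an adjusted p of 0.05. The filled point is *CDKN2C* at −0.38 in black, and the intervals for the libraries as recorded all include 0.

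The differences of NCc and siPrp19a from the other libraries of their groups correlated with merged exon length, only weakly for siPrp19a. Across all 13718 genes, the difference of NCc from the mean of NCa and NCb had a Spearman rho of −0.399 with merged exon length, and that of siPrp19a from the mean of siPrp19b and siPrp19c one of 0.230. These values are descriptions, since genes share libraries. Among the 9 genes, NCc was higher than NCa and NCb by 0.15 (log2) for *CDKN1B*, with the shortest exons at 2.81 kb, and by 0.21 for *CDK4* at 3.17 kb. It was lower by −0.39 for *RB1* at 6.45 kb and by −0.52 for *CDK6* at 12.3 kb, the longest, but higher by 0.18 for *CCND3* at 5.80 kb. For *CDK4*, *RB1* and *CDK6* siPrp19a differed the other way, with −0.36, 0.29 and 0.30. It was at only −0.06 for *CDKN1B*, the shortest, and likewise at −0.06 for *CCND3*. *CDKN2A*, at 4.33 kb, had the largest positive value of the 9 in NCc, 0.48. Between the groups, the rho over all genes was 0.0193. A correction for exon length, added after these values were seen, gave 1493 genes (10.9%) past the test, and of the 9 genes again only 1.

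**Figure D4:**
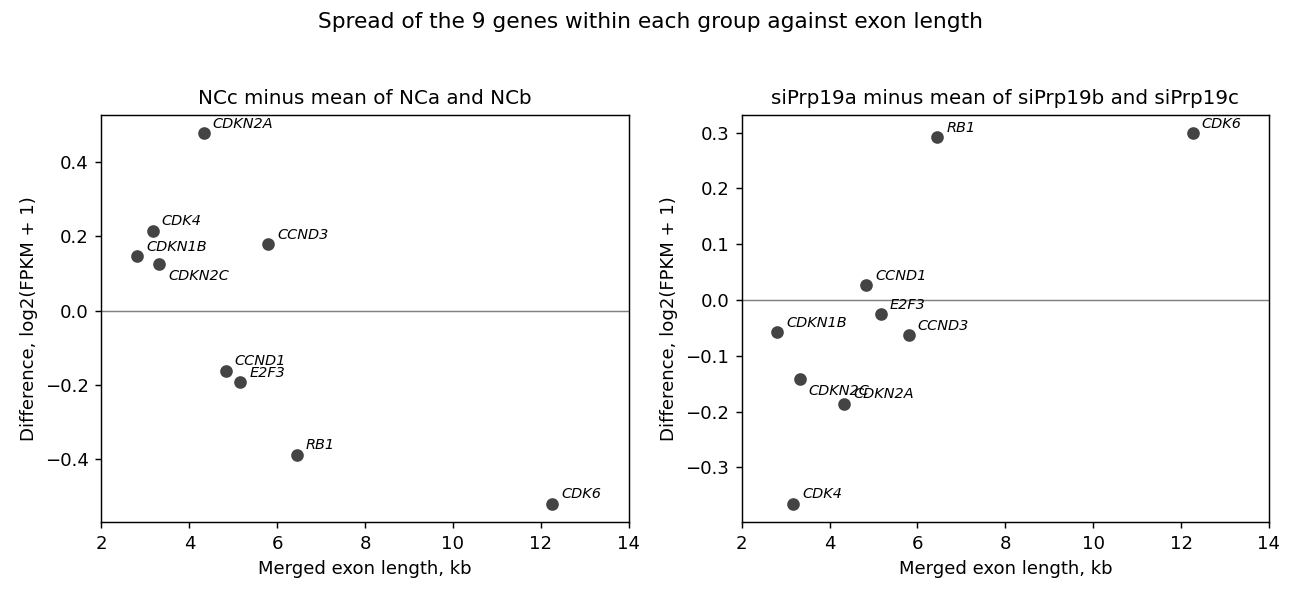
Difference of 1 library from the other libraries of its group in log2(FPKM + 1) (vertical axes) against merged exon length in kb (horizontal axes), for NCc (left) and siPrp19a (right), 1 point per gene. For *CDKN1B*, the shortest, *CDK4* and *CDK6*, the longest, the values were 0.15, 0.21 and −0.52 in NCc and −0.06, −0.36 and 0.30 in siPrp19a.

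The other genes of the axis were taken from a list of 29 genes, all of which were tested. With 6 libraries by header name 4 passed, 1 higher and 3 lower, beside 7.94% of all genes (2.57% higher and 5.37% lower), and the median log2 difference of the list was −0.06. *CDKN1A*, which encodes the CDK inhibitor p21 and is a target of p53, was at 15.1, 14.9 and 16.0 FPKM in NC and at 20.4, 24.6 and 28.0 FPKM in siPrp19 libraries. It rose by 58.5% (log2 difference 0.62 ± 0.11, adjusted p = 0.0216, limma). *SKP2*, the ubiquitin ligase subunit that marks p27 for degradation, was at 40.3, 40.3 and 36.7 FPKM in NC and at 24.5, 21.4 and 21.2 FPKM in siPrp19 libraries. It fell by 42.8% (−0.78 ± 0.08, adjusted p = 0.00463, limma), and *CDKN1B*, which encodes p27, was at a log2 difference of −0.17 beside it.

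*CDK2*, the kinase that follows CDK4 and CDK6 at the entry into S phase, was at 16.1, 15.3 and 15.7 FPKM in NC and at 9.74, 11.6 and 11.1 FPKM in siPrp19 libraries. It fell by 31.1% (−0.50 ± 0.08, adjusted p = 0.0140, limma). *CDKN2B*, which encodes the INK4 protein p15 next to *CDKN2A*, was at 2.26, 2.24 and 2.08 FPKM in NC and at 1.14, 1.22 and 1.35 FPKM in siPrp19 libraries. It fell by 43.5% (−0.51 ± 0.09, adjusted p = 0.0209, limma). Of the 4 INK4 genes *CDKN2C* and *CDKN2B* were thus lower past the test, whereas *CDKN2A* was at −0.26 (adjusted p = 0.338, limma) and *CDKN2D*, which encodes p19, at 0.06 (adjusted p = 0.913), both with overlapping groups. In *CDKN1A*, *SKP2*, *CDK2* and *CDKN2B* the groups did not overlap, as in 14 of the 29, beside 31.3% of all genes. Leaving out each library in turn, *SKP2* passed in 6 of 6 cases, *CDK2* in 3 and *CDKN1A* and *CDKN2B* in 2 each, so that 1 gene of the list passed without NCa, NCb or siPrp19c and 2 without siPrp19b. None of the 29 passed in the 4 libraries with limma, nor as recorded.

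Genes that E2F factors are known to activate were listed as 22 genes, all tested. With 6 libraries by header name 5 passed, all lower, beside the background of 5.37% lower, and the median log2 difference was −0.26 beside −0.02 over all genes. The groups did not overlap for 18 of 22, all lower, beside 18.1% of all genes, and 21 of 22 differences were below 0. *TYMS*, thymidylate synthase, was at 17.0, 17.9 and 17.8 FPKM in NC and at 7.02, 8.17 and 7.75 FPKM in siPrp19 libraries. It fell by 56.4% (−1.10 ± 0.07, adjusted p = 0.00182, limma), and passed without each library in turn. *TK1*, thymidine kinase, fell by 33.2% from 105 ± 13.4 to 70.4 ± 3.16 FPKM (SD, n = 3; adjusted p = 0.0224, limma).

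The mitotic genes *CCNB1* (cyclin B1) and *CDK1* (its kinase) fell by 34.0% and 29.1% (adjusted p = 0.00985 and 0.0111, limma), with group means of 62.6 and 41.3 FPKM for *CCNB1* and 37.1 and 26.3 FPKM for *CDK1*. *UHRF1*, which maintains DNA methylation at replication, fell by 26.9% from 31.0 to 22.7 FPKM (adjusted p = 0.0190, limma). The other 17 genes did not pass. The number past the test was 1 without siPrp19c, 2 without NCb, 2 without siPrp19b, 3 without NCa, 5 without NCc and 6 without siPrp19a. It was 0 with the close pairs of libraries averaged, where 0 of the 29 other axis genes passed as well, and it was 0 in the 4 libraries and as recorded with limma. *ORC1*, a subunit of the origin recognition complex named here after its value was seen, was the 1 target with a difference above 0 (0.08, adjusted p = 0.563, limma).

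**Figure D5:**
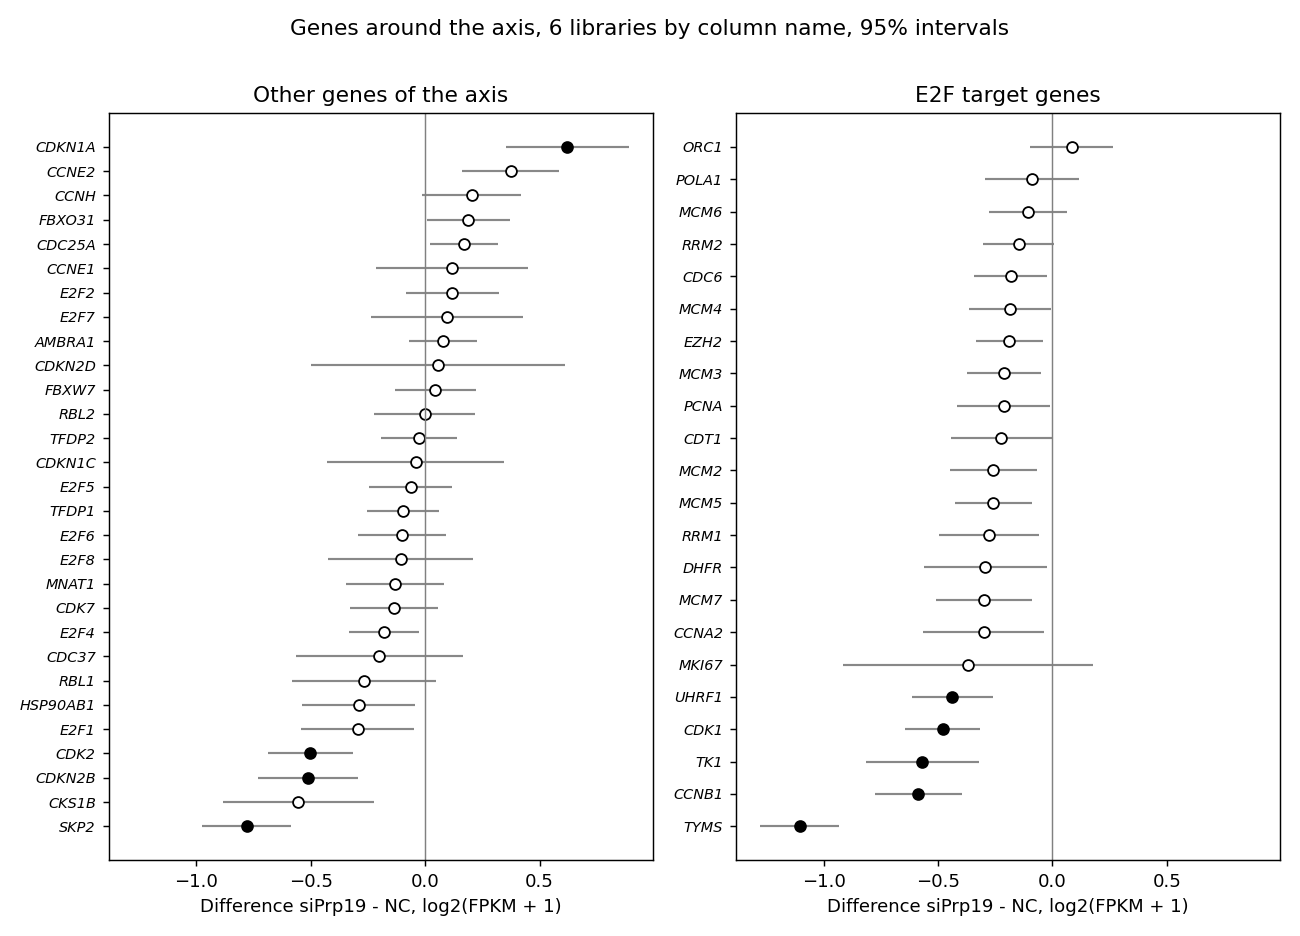
Difference between siPrp19 and NC in log2(FPKM + 1) (horizontal axes) with 95% limma intervals for 29 other genes of the axis (left) and 22 E2F target genes (right), 6 libraries by the name in the header; filled points passed an adjusted p of 0.05. *CDKN1A* was the 1 filled point above 0, and 21 of the 22 E2F targets lay below 0.

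The genes whose pattern over the 6 libraries was most like that of *CDKN2C* were, by Pearson correlation of log2(FPKM + 1), *DESI1* (r = 0.995), *FZD2* (0.994), *CNN2* (0.993), *C1QTNF1* (0.991) and *RPL7L1* (0.991). With 6 libraries in 2 groups such values are common, and 250 genes exceeded 0.95. Of these 5, *CNN2* (adjusted p = 0.0208, limma) and *C1QTNF1* (0.0249) passed the test.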

How the data were processed

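The 6 libraries of SK-N-AS RNA comprised 3 NC and 3 siPrp19. The authors deposited 1 table per library with FPKM values for 58735 Ensembl genes. Per the labels, HISAT2 2.0.5, featureCounts 1.5.0-p3 and hg38 were used, and whether counting used strand is not given in the sources used here. Whole reads were recovered from FPKM and GENCODE 29 exon lengths, and 100% of values came out whole within 0.05. Symbols came from a name table for 58207 identifiers and otherwise from GENCODE 29.

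Genes with a mean of at least 1 FPKM were tested on log2(FPKM + 1), a scale that understates changes of low genes, with limma 3.58.1 in R 4.3.3 (moderated test with a mean-variance trend, Benjamini-Hochberg adjustment over 13718 genes, threshold 0.05). Sums and ratios were compared with two-sided exact permutation tests in Python 3.11.15. The ratio of *CDK4* to *CDK6* was tested on the log2 scale, and its differences are given unlogged. Fold changes are of FPKM means. The fit was also run on simulated reads of independent libraries. These held no close pairs, so the run does not show how the fit behaves with such pairs. In 4 of the 6 tables the header named another sample than the record, and in 2 of these another group.

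Alternatives were a pseudocount of 0.1, a filter at 0.1 FPKM or none, quantile normalization, equal sums, median-ratio scaling, no trend, voom on recovered reads, the close pairs averaged, a replicate block, leaving out each library, and a length correction with a spline of 4 degrees of freedom. The genes, lists and alternatives were chosen with earlier results of these data known. The named genes were the 10 genes, *PRPF19*, list genes past the test (up to 8 per list) and the 5 genes most like the called gene with the smallest p.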

Additional observations from a re-analysis of the deposited data

How the results depend on the processing

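By header name 1089 genes passed the test, and of the 9 genes 1. The count of all genes was 512 without a filter, 679 with equal sums and 2 with the close pairs averaged, and of the 9 genes 0 passed under these 3 settings and with the filter at 0.1 FPKM. Without 1 library the counts ranged from 253 (without siPrp19c) to 1354 (without NCc), with 264 without NCa, 335 without NCb and 270 without siPrp19b, and for the 9 genes from 0 to 2. With the 4 libraries 2 genes passed, against 0 without a filter, 0 with the filter at 0.1 FPKM and 266 with voom, and 0 to 70 without 1 library, where the lone library of a group is assumed to vary like the others. The share of higher genes among those passing was 32.4%, against 46.1% with quantile normalization and 54.5% with voom (1370 genes). Median-ratio scaling left the count at 1089. The replicate numbers did not pair the libraries (correlations of deviations 0.134, −0.049 and 0.204), and with the replicate block 928 genes passed, of the 9 genes 1, and the sums and ratios kept their differences of −8.92, −5.34 and −0.386 with exact permutation p of 0.25, 0.25 and 0.5.

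Without 1 library, the difference in summed D-type cyclins ranged from −11.2 to −7.06 FPKM, that in the share of *CCND1* from −6.49 to −4.74 points, and that in the ratio of *CDK4* to *CDK6* from −0.708 to 0.248, with 0.0429 without siPrp19a. The sign of a log2 difference turned for *CDK6* by header name with the close pairs averaged (0.00877), and in the 4 libraries with quantile normalization (0.0904), equal sums (0.0271), voom (0.0591), without NCa (0.251) and without siPrp19c (0.147). It turned by header name for *RB1* without NCc (−0.0688) and siPrp19a (−0.0369), and for *E2F3* without NCc (−0.0612) and siPrp19c (−0.0126). In the 4 libraries without NCc it did so for *RB1* (−0.00499) and *E2F3* (−0.0570). As recorded it turned for *CCND1* (0.0606 with quantile normalization, 0.0384 without NCa, 0.00189 without siPrp19c), *CDKN1B* (0.00109 with quantile normalization), *CCND3* (−0.0595 without NCa, −0.0153 without siPrp19a, −0.0461 without siPrp19c), *CDK6* (−0.0157 without NCc) and *E2F3* (−0.000752 without NCc). None of these differences had passed the test, and the causes were not tested.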

Other observations

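*PTPRC*, which encodes CD45, an antigen that marks leukocytes, was at 29.8, 30.7 and 24.9 FPKM in NCa, NCb and NCc and at 20.4, 16.9 and 17.0 FPKM in siPrp19a, siPrp19b and siPrp19c, with up to 4323 reads in a library. Its level was thus above that of *CCND3* in the NC libraries, whereas *EPCAM*, an epithelial marker, had at most 7 reads in a library and *ALB*, a hepatocyte marker, at most 1. *PECAM1*, an endothelial marker, had up to 160 reads in a library. The source of these *PTPRC* reads was not tested.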
